A study of Mus musculus with 71 samples.

Results

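The genes described are the neurotrophins Bdnf and Ntf3, the Trk receptor genes Ntrk2 and Ntrk3, and the genes of a pair of receptors outside the Trk family that also bind neurotrophins or their precursors, Ngfr and Sort1. They were chosen by name, and all 6 of 6 were found among the 55416 gene identifiers of the count table. RNA sequencing of bulk brain tissue gave 71 libraries from C57BL/6J mice, in which a burn was compared with an excision wound and with a sham procedure. Burned mice had a heated brass rod 19 mm across applied to the shaved right flank for 10 s at over 90 °C, which made a full-thickness wound of 7 to 8% of body surface. Excision mice lost full-thickness skin scored with a 12 mm punch on the shaved back, and sham mice were shaved on the back and not injured. All mice, sham included, received isoflurane, buprenorphine and, afterwards, paracetamol in the drinking water, and burn and excision sites differed in position. The hippocampus gave 10 burn, 10 excision and 9 sham libraries and the frontal cortex 10, 10 and 8, each over 2 batches, and the piriform cortex gave 5, 4 and 5 in a batch of its own. The titles of all 14 libraries taken here as piriform cortex say frontal cortex; the region is that of the tissue field, and every piriform value rests on that field. The labels do not state when tissue was taken, how old the mice were or which libraries share a mouse, so p-values measure the spread between these libraries.

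Neurotrophins are secreted growth factors that neurons need for survival, branching and synaptic plasticity. The mature form of BDNF signals through TrkB, the product of Ntrk2, and NT-3, the product of Ntf3, signals mainly through TrkC, the product of Ntrk3. Uncleaved precursors bind p75NTR, the product of Ngfr, together with sortilin, the product of Sort1, which also sorts BDNF into the secretory pathway. In the brain, Bdnf is made mostly by excitatory neurons in response to activity, Ntf3 is known for its expression in dentate granule cells, and Ngfr is best known from cholinergic neurons of the basal forebrain. Counts per gene pool all transcripts, so full-length and truncated forms of TrkB or TrkC, and transcripts from the several Bdnf promoters, cannot be told apart.

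Positions are from GENCODE M21 on GRCm38, the build in the submitters' processing notes. Bdnf lies at chr2:109674700-109727007 on the plus strand, Ntf3 at chr6:126101412-126166910 on the minus strand, Ntrk2 at chr13:58806569-59133970 on the plus strand, Ntrk3 at chr7:78175959-78738012 on the minus strand, Ngfr at chr11:95568818-95587735 on the minus strand and Sort1 at chr3:108284082-108361511 on the plus strand. Exons of Bdnf share 896 bases with the antisense gene Gm45346, and exons of Sort1 share 338 bases with the antisense gene Gm12523. Whether counting used strand is not given in the sources used here. Those antisense genes had at most 0.182 and 0.171 CPM (counts scaled to a common library total).

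Bdnf is transcribed from several starts, and RefSeq (GRCm38.p6) gives 7 promoter windows for it, each from 250 bases before to 50 bases after a start. The third is shown because it holds the letters TCACGTCA, in capitals. They are a variant of the cyclic AMP response element through which neuronal activity is known to drive Bdnf. The first window is set beside it and lacks that exact run of letters. It does hold tcacgtaa, which differs only in the next-to-last letter. Only exact matches were searched, so near matches are not marked. The Ntf3 window shown is the one of its 2 that holds CACGTG, an E-box, in capitals.
Bdnf, chr2:109692186-109692485, plus strand: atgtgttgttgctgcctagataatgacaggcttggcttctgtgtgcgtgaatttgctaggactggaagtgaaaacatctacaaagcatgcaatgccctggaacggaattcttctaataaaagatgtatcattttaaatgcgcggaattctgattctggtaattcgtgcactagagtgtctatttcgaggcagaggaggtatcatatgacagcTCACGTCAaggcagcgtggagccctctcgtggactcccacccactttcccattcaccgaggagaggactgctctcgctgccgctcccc
Bdnf, chr2:109674450-109674749, plus strand: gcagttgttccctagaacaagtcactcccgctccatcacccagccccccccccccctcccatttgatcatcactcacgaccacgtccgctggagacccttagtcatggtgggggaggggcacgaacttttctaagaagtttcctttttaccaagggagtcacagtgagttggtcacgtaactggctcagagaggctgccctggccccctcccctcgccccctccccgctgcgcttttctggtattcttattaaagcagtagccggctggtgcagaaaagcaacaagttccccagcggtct
Ntf3, chr6:126166695-126166994, minus strand: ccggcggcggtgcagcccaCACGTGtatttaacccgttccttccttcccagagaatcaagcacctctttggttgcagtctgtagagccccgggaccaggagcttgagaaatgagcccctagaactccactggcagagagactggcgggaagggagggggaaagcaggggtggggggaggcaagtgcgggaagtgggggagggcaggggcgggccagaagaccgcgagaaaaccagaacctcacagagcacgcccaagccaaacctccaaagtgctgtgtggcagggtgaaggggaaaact
The variant TCACGTCA starts at position 213 of the Bdnf window, counted from 1 at its 5′ end, and occurs on either strand in 0.441% of 32851 promoter windows of this length. The full palindrome TGACGTCA, in 1.79% of all windows, was not found in the windows of Bdnf, Ntf3, Ntrk2 or Ngfr that were searched. CACGTG starts at position 20 of the Ntf3 window and is in 7.15% of all windows. TCACGTCA and CACGTG share the run CACGT, so the motifs resemble each other, and a match is a description of the sequence only.

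Total counts ran from 6652468 to 87775812 per library, with 4 libraries, all of hippocampus batch 1, under 10000000 and called shallow here. For 4 libraries the treatment field, which set the groups, conflicts with the treatment in the title, besides the conflict over region in the 14 piriform libraries: frontal cortex burn replicates 7 and 8 (titled sham), frontal cortex excision replicate 7 (titled burn) and piriform cortex sham replicate 2 (titled excision). Hippocampal libraries carried the dentate granule cell markers Prox1, Dsp, C1ql2, Tdo2 and Sema5b at a summed 114 to 281 CPM, against 27.6 to 46.8 CPM in frontal cortex libraries. Piriform cortex libraries had 30.3 to 50.9 CPM of these markers except for sham replicate 1, which had 215 CPM. Neocortical excitatory markers, among them Tbr1, Cux2, Rorb, Fezf2 and Lamp5, summed to 160 to 360 CPM in hippocampus, 456 to 953 CPM in piriform cortex and 233 to 754 CPM in frontal cortex. Striatal projection neuron markers varied within frontal cortex from 73.6 to 1170 CPM and within piriform cortex from 154 to 1460 CPM. In bulk tissue, fewer cells of a type and less RNA per cell cannot be told apart.

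Sort1 and Ntrk2 were the most abundant of the genes per length of exon, and Ntf3 and Ngfr the least. In sham libraries the median level of Sort1 was 65.3 CPM per kb of exon in hippocampus, 67.7 in piriform cortex and 65.2 in frontal cortex. Ntrk2 followed with medians of 22.2 CPM per kb in hippocampus, 30.5 in piriform cortex and 33.0 in frontal cortex, and its libraries did not overlap with those of Sort1 in any region. Bdnf, at 5.96, 6.05 and 5.13 CPM per kb in the same order of regions, and Ntrk3, at 3.79, 3.99 and 4.21 CPM per kb, were neighbours whose libraries overlapped in each region. Ntf3 had a median of 2.76 CPM per kb in hippocampus, 0.730 in piriform cortex and 0.374 in frontal cortex. Ngfr had 0.599, 0.418 and 1.00 CPM per kb, so Ntf3 stood above Ngfr without overlap in hippocampus, while the piriform libraries of both genes overlapped.

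**Figure D1:**
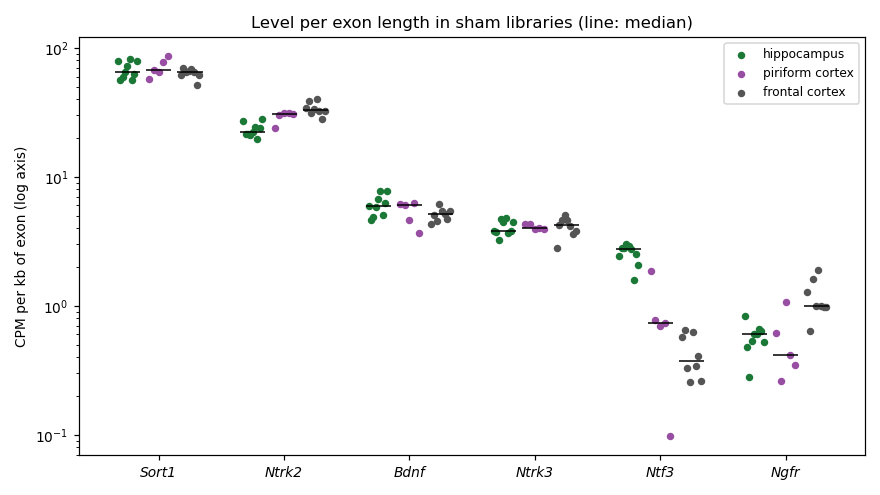
Level of each gene per kilobase of exon (CPM per kb, log axis) in the sham libraries of hippocampus, piriform cortex and frontal cortex, 1 point per library, with the median as a line. Sort1 lies highest with medians of 65.2 to 67.7, and Ntf3 has the widest separation between regions, with medians of 2.76 in hippocampus and 0.374 in frontal cortex.

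Between regions the sham libraries differed most in Ntf3, which was higher in hippocampus than in either cortex, while Ntrk2 was lower in hippocampus and Ngfr was lower in hippocampus than in frontal cortex. In the comparison of sham hippocampus with sham frontal cortex, 3 of the 6 genes were called at an adjusted p under 0.05, beside 39.3% of all 21149 genes tested. Ntf3 had 2.73, 4.73 and 5.17 CPM (lowest, median and highest) in the 9 hippocampal libraries, against 0.442, 0.641 and 1.11 CPM in the 8 frontal cortex libraries, and the groups did not overlap. The log2 fold change of Ntf3 was 2.66 (SE 0.344, edgeR quasi-likelihood test, adjusted p = 1.31e-06). Ntrk2 had 382, 429 and 541 CPM in hippocampus, against 547, 636 and 770 CPM in frontal cortex, again without overlap. The share of all genes whose sham libraries did not overlap between these regions was not computed. The log2 fold change of Ntrk2 was -0.52 (SE 0.0826, edgeR adjusted p = 2.14e-05). Ngfr had 0.972, 2.07 and 2.88 CPM in hippocampus, against 2.19, 3.45 and 6.55 CPM in frontal cortex, where the lowest frontal library lay inside the hippocampal range. Its log2 fold change was -1.02 (SE 0.26, edgeR adjusted p = 0.00307). Summed cholinergic markers, among them Chat, Slc18a3, Slc5a7, Lhx8 and Gbx1, from cells that carry p75NTR, ran from 0.473 to 3.80 CPM over all hippocampal libraries, against 0.717 to 40.0 CPM over all frontal cortex libraries, and their part in the Ngfr difference was not tested. Bdnf, Ntrk3 and Sort1 were not called, with log2 fold changes of 0.23 (SE 0.118), -0.01 (SE 0.102) and 0.11 (SE 0.0934).

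Sham hippocampus also exceeded sham piriform cortex in Ntf3 (log2 fold change 1.61, SE 0.374, edgeR adjusted p = 0.00162) and lay below it in Ntrk2 (-0.35, SE 0.0925, edgeR adjusted p = 0.00504), 2 of 6 genes beside 34.8% of all genes. The 5 sham piriform libraries had 0.167, 1.20, 1.25, 1.32 and 3.20 CPM of Ntf3, and the highest was replicate 1, the library with 215 CPM of dentate granule cell markers. Without that replicate the log2 fold change of Ntf3 in hippocampus against piriform cortex was 2.12, against 1.61 with it. Between sham piriform and sham frontal cortex, Ngfr was the 1 gene of 6 called, beside 12.3% of all genes, with a log2 fold change of -1.05 (SE 0.3, edgeR adjusted p = 0.0245). Sham piriform Ngfr was 0.894, 1.19, 1.44, 2.13 and 3.72 CPM, and that highest library overlapped the frontal cortex range. The call was lost when piriform sham replicate 2, 4 or 5 was left out, with adjusted p of 0.0658, 0.0639 and 0.0741. Ntf3 was not called in that comparison (1.05, SE 0.371, edgeR adjusted p = 0.0678), was 0.52 without piriform sham replicate 1, and was called without replicate 5 (1.32, adjusted p = 0.00368). All piriform libraries are of batch 3, which holds no other region, so region and batch cannot be told apart there.

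Ntf3 also varied between hippocampal libraries, and the dentate marker sums are given beside it. Among the 29 hippocampal libraries the lowest Ntf3, 1.15 CPM from 8 reads, was in excision replicate 3, a shallow library, where the summed dentate markers were 118 CPM. The lowest dentate sum of the region, 114 CPM, was in burn replicate 9, with 2.99 CPM of Ntf3. The highest Ntf3, 6.67 CPM in excision replicate 2, came with a dentate sum of 279 CPM. Other libraries did not follow that order: excision replicate 7 had 2.76 CPM of Ntf3 at a dentate sum of 221 CPM, burn replicate 2 had 4.48 CPM at 129 CPM and burn replicate 5 had 6.19 CPM at 189 CPM. The part of tissue sampling in these differences was not tested.

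**Figure D2:**
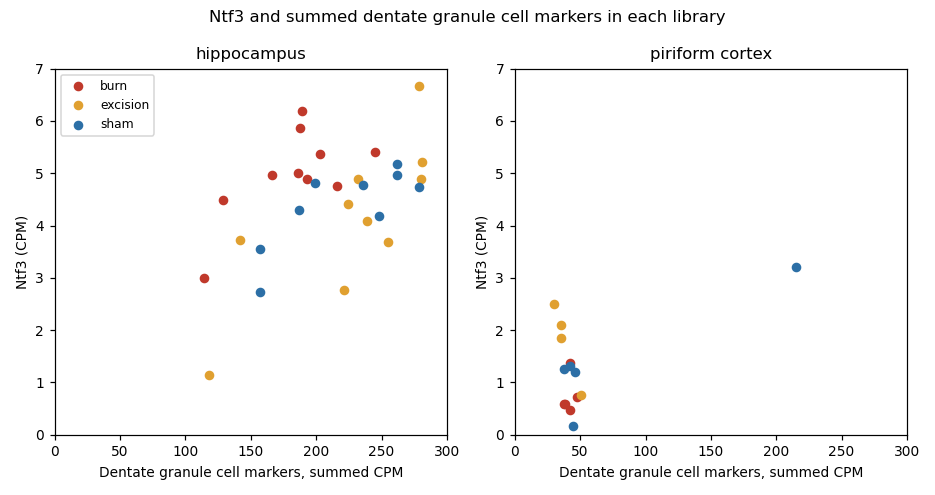
Ntf3 (CPM) against the summed level of the dentate granule cell markers Prox1, Dsp, C1ql2, Tdo2 and Sema5b (CPM), 1 point per library, in hippocampus and piriform cortex, coloured by treatment. In piriform cortex sham replicate 1 lies apart, at 215 CPM of markers and 3.20 CPM of Ntf3.

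The other neurotrophin signalling genes, a list of 28 ligands, receptors, sortilin relatives and adaptors, were called about as often as genes in general between sham regions. In hippocampus against frontal cortex 3 of the 28 were higher and 9 lower, beside 39.3% of all genes called, with a median log2 fold change of -0.11 beside 0.01 over all genes. Examples were the sortilin relative Sorcs1 (-1.32) and the adaptors Grb2 (-0.52) and Shc3 (-1.22). Against piriform cortex, 2 of the 28 were higher in hippocampus and 9 lower, beside 34.8% of all genes, with Sorcs1 (-1.71) and Lingo1 (-0.92) among the lower ones. In piriform against frontal cortex 2 were higher, Rtn4r (0.82), the Nogo receptor that acts with p75NTR, and its partner Lingo1 (0.56), and 2 were lower, Grb2 (-0.54) and Sorcs2 (-0.35), beside 12.3% of all genes.

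Of 12 genes of neurotrophin processing and secretion, 2 were higher and 4 lower in sham hippocampus against sham frontal cortex, where 39.3% of all genes were called. They were led by the granins Scg2 (-1.29) and Chgb (0.69) and the proconvertase Pcsk1 (-1.23). Of 12 Bdnf transcription regulators, Usf1 was higher (0.43) and 4 were lower, among them Mef2c (-1.38), Npas4 (-1.26) and Crem (-0.27). Of 22 activity-induced genes 2 were higher and 18 lower, with a median of -0.93 beside 0.01 over all genes; the lower ones included Egr1 (-1.54), Egr3 (-1.18) and Nptx2 (-1.18). Bdnf, itself induced by activity, was not among the genes that differed, with medians of 37.0 CPM in hippocampus and 31.9 CPM in frontal cortex.

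After burn or excision none of the 6 genes was called in any of the 9 treatment comparisons with both batches together. In hippocampus the share of all genes called was 1.03% for burn against sham, 0.209% for burn against excision and 0% for excision against sham. In frontal cortex the shares were 0.28%, 0.209% and 0%, and in piriform cortex 0%, 0% and 0%. In the comparisons with no gene called, edgeR gave an unadjusted p under 0.05 for 727 genes (hippocampus excision against sham), 1007 genes (frontal cortex excision against sham), and 896, 1658 and 1102 genes (piriform burn against sham, burn against excision and excision against sham). DESeq2 called 0 genes in both excision against sham comparisons of hippocampus and frontal cortex, and 1, 59 and 2 genes in the piriform comparisons in the order above. The comparisons within a region share their libraries, so their values are not independent of each other.

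**Figure D3:**
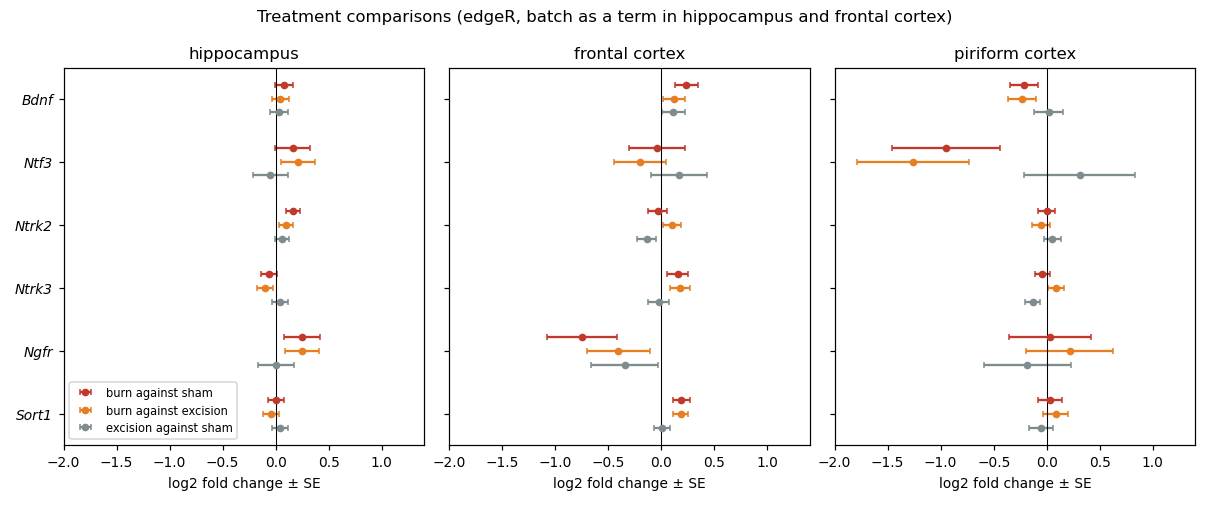
Log2 fold change with its SE for each gene in the 3 treatment comparisons of each region, from edgeR. No gene passed the adjusted threshold; the widest errors are those of Ntf3 in piriform cortex (SE 0.509 to 0.53) and Ngfr in piriform cortex (SE 0.386 to 0.413).

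Among the ligands, Bdnf in hippocampus ranged over 34.4 to 49.0 CPM after burn, 29.6 to 43.9 CPM after excision and 28.6 to 48.4 CPM after sham. Its log2 fold change was 0.08 (SE 0.0842) for burn against sham and 0.03 (SE 0.0844) for excision against sham, with approximate 95% intervals of -0.09 to 0.24 and -0.13 to 0.20. These intervals use the normal quantile, so they are somewhat narrower than the quasi-likelihood test would give. In piriform cortex Bdnf was 26.9, 27.6, 29.0, 29.5 and 31.1 CPM after burn, 31.0, 33.5, 35.7 and 36.1 CPM after excision and 22.7, 28.8, 37.6, 38.4 and 39.1 CPM after sham. All but the highest burn library lay below all excision libraries, while the sham libraries spanned both groups. How many of all genes had such a pattern was not computed. The log2 fold changes were -0.23 (SE 0.135, edgeR adjusted p = 0.67) against excision and -0.21 (SE 0.128, edgeR adjusted p = 0.884) against sham.

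Ntf3 in piriform cortex was 0.475, 0.583, 0.595, 0.713 and 1.38 CPM after burn, against 0.764, 1.84, 2.10 and 2.50 CPM after excision. All but 1 burn library lay below all excision libraries, and the share of all genes with such a pattern was not computed. The log2 fold change was -1.26 (SE 0.53), with an unadjusted p of 0.03 and an edgeR adjusted p of 0.627. Against sham it was -0.95 (SE 0.509, edgeR adjusted p = 0.884), and -0.40 (SE 0.467) without sham replicate 1, the library with 215 CPM of dentate markers. In hippocampus Ntf3 differed between burn and sham by 0.16 (SE 0.166), and in frontal cortex by -0.04 (SE 0.267), where batch 1 alone gave -0.44 (SE 0.288) and batch 2 alone 0.48 (SE 0.443).

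Of the Trk receptors, Ntrk2 in hippocampus had the lowest unadjusted p, 0.0213, for burn against sham, with a log2 fold change of 0.16 (SE 0.0672, edgeR adjusted p = 0.2). In batch 1 it was 506, 510, 520, 531 and 575 CPM after burn, 410, 428, 429, 465 and 477 CPM after excision and 409, 412, 414 and 520 CPM after sham. The burn libraries lay above all excision libraries and above 3 of the 4 sham libraries. The share of all genes separated in this way was not computed. The exception, sham replicate 1, is one of the shallow libraries. Each treatment of that batch held a shallow library, with lowest Ntrk2 counts of 3759 reads after burn, 2983 after excision and 3970 after sham. In batch 2 Ntrk2 ran from 423 to 547 CPM after burn, 454 to 566 CPM after excision and 382 to 541 CPM after sham. Alone, batch 1 gave 0.23 (SE 0.081, edgeR adjusted p = 0.0987) and batch 2 gave 0.07 (SE 0.0984, edgeR adjusted p = 0.959). None of the 6 genes was called for burn against sham in either hippocampal batch, beside 7.09% of genes in batch 1 and 0.156% in batch 2. Astrocytes, which carry truncated TrkB, had summed markers of 4250 to 4700 CPM after burn, 3460 to 4400 CPM after excision and 3830 to 4490 CPM after sham in batch 1, and their part in the Ntrk2 values was not tested. Ntrk3 differed between treatments by -0.10 to 0.18 on the log2 scale in hippocampus and frontal cortex and by -0.13 to 0.09 in piriform cortex.

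**Figure D4:**
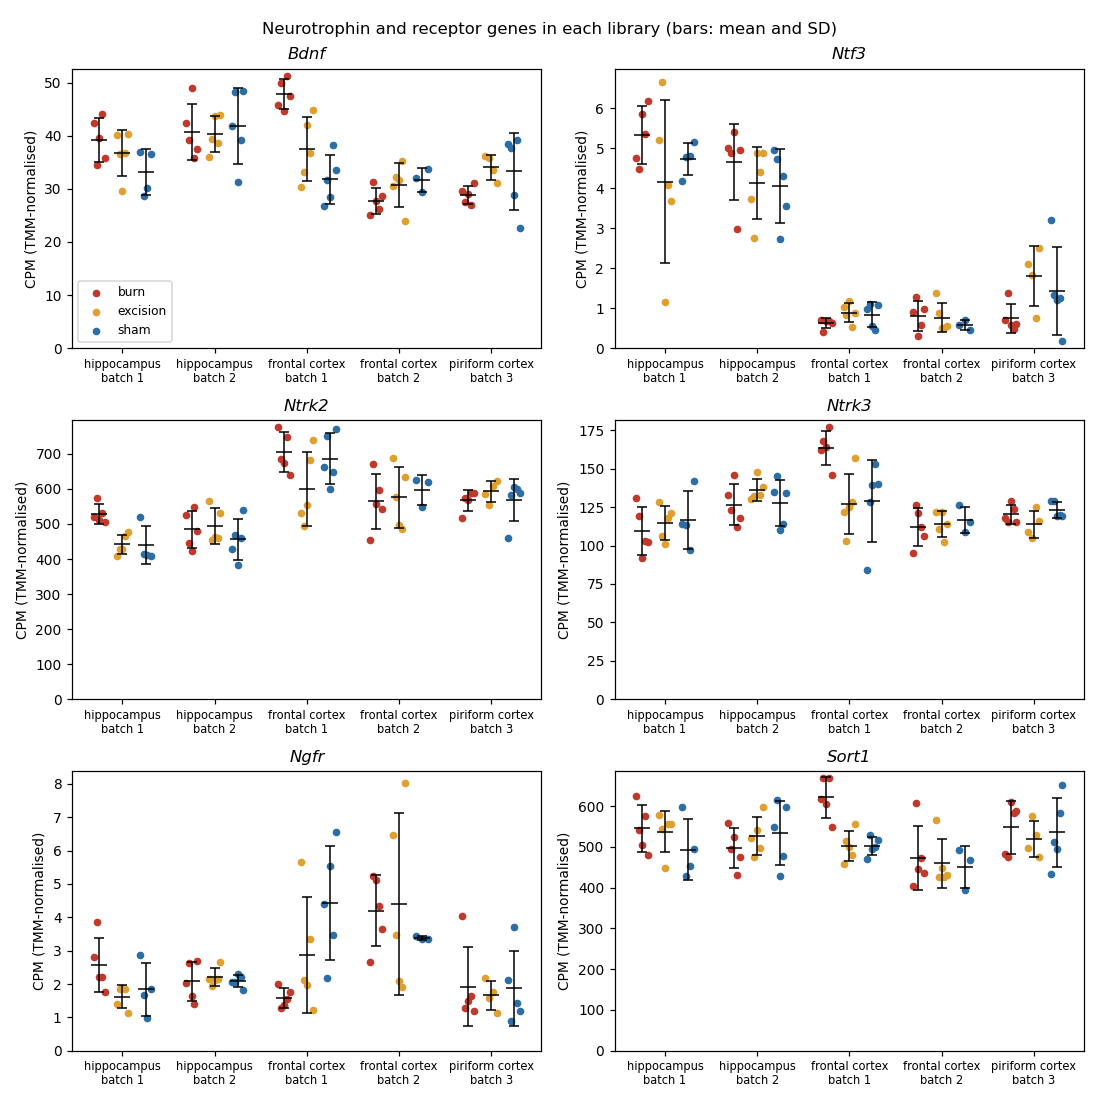
CPM of each gene in every library, by region and batch, for burn, excision and sham, with mean and SD as bars. In frontal cortex batch 1 the burn libraries of Bdnf (44.6 to 51.2) and Sort1 (549 to 670) lie above all sham libraries and those of Ngfr (1.27 to 1.99) below them; in batch 2 the groups overlap.

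The frontal cortex showed different values in its batches. In batch 1 Bdnf and Sort1 were higher and Ngfr lower in burn than in sham libraries, without overlap; in batch 2 the groups overlapped for all of them. Bdnf in batch 1 was 44.6, 45.8, 47.5, 50.0 and 51.2 CPM after burn, 30.4, 33.1, 36.8, 42.0 and 44.9 CPM after excision and 26.7, 28.5, 31.7, 33.6 and 38.3 CPM after sham. Batch 1 alone gave a log2 fold change of 0.58 (SE 0.115, edgeR adjusted p = 0.0182) for burn against sham, with 3 of the 6 genes called beside 6.5% of 20430 genes tested in that batch. In batch 2 Bdnf was 25.0, 26.1, 27.7, 28.7 and 31.2 CPM after burn, against 29.3, 32.1 and 33.7 CPM after sham. That batch alone gave -0.19 (SE 0.125, edgeR adjusted p = 0.819), with 0% of all genes called. Without the libraries whose titles name another treatment, all of them in batch 2, the batch 2 value was -0.26 (SE 0.149). With both batches the log2 fold change was 0.24 (SE 0.111, edgeR adjusted p = 0.358).

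Ngfr in batch 1 was 1.27, 1.36, 1.54, 1.77 and 1.99 CPM after burn, 1.23, 1.97, 2.13, 3.35 and 5.65 CPM after excision and 2.19, 3.46, 4.41, 5.53 and 6.55 CPM after sham. All burn libraries were below all sham libraries, a log2 fold change of -1.50 (SE 0.36, edgeR adjusted p = 0.029). In batch 2 it was 2.67, 3.64, 4.33, 5.12 and 5.23 CPM after burn, against 3.35, 3.36 and 3.44 CPM after sham (0.31, SE 0.404, edgeR adjusted p = 0.872). Without the libraries with conflicting titles that value was 0.06 (SE 0.478). Both batches together gave -0.75 (SE 0.327, edgeR adjusted p = 0.326).

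Sort1 in batch 1 was 549, 604, 618, 668 and 670 CPM after burn, 459, 481, 499, 514 and 556 CPM after excision and 470, 494, 500, 516 and 529 CPM after sham. The burn libraries were above all sham libraries and overlapped the excision libraries at 1 value. The log2 fold change was 0.30 against sham (SE 0.0743, edgeR adjusted p = 0.0319) and 0.30 against excision (SE 0.0743, edgeR adjusted p = 0.028), the 1 gene of 6 called against excision in batch 1, beside 6.45% of all genes. In batch 2 it was 405, 437, 446, 472 and 607 CPM after burn, against 394, 467 and 493 CPM after sham (0.07, SE 0.145, edgeR adjusted p = 0.917). The library at 607 CPM was burn replicate 7, titled sham. Without the libraries with conflicting titles the batch 2 value was -0.05 (SE 0.148). Over 23526 genes, 7.65% had all burn libraries of batch 1 above all sham libraries and 3.22% had all of them below.

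**Figure D5:**
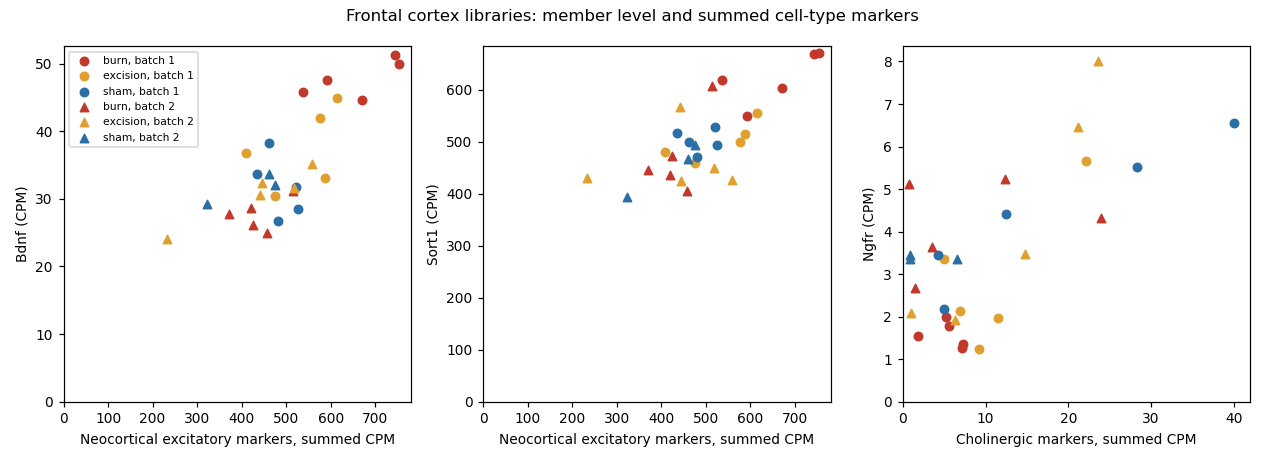
Bdnf and Sort1 (CPM) against summed neocortical excitatory markers, and Ngfr (CPM) against summed cholinergic markers, in each frontal cortex library; circles are batch 1 and triangles batch 2, coloured by treatment. The batch 1 burn libraries, at 537 to 754 CPM of excitatory markers, lie to the right of all batch 1 sham libraries, at 435 to 526 CPM.

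Markers of several cell types differed between the same libraries. In batch 1 the 6 neocortical excitatory markers summed to 537 to 754 CPM after burn, against 435 to 526 CPM after sham, without overlap. The 6 cholinergic markers summed to 1.81 to 7.28 CPM after burn, against 4.27 to 40.0 CPM after sham, and the striatal projection neuron markers to 136 to 521 CPM after burn, against 284 to 1170 CPM after sham. Choroid plexus markers summed to 3.32 to 9.78 CPM after burn, against 8.60 to 22.2 CPM after sham. In batch 2 the excitatory markers were at 371 to 515 CPM after burn and 323 to 475 CPM after sham. After excision in batch 1 the excitatory markers were at 409 to 614 CPM and the cholinergic markers at 5.02 to 22.1 CPM. In batch 2 the cholinergic markers were at 0.717 to 24.0 CPM after burn and 0.845 to 6.52 CPM after sham. No marker of the excitatory or cholinergic lists was at 0 in all frontal cortex libraries of a group. The part of these cell types in the values of Bdnf, Sort1 and Ngfr was not tested.

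The difference between batches was tested as an interaction. For Bdnf the burn effect was lower in batch 2 than in batch 1 by 0.79 on the log2 scale (log2 difference -0.79, SE 0.168), with an unadjusted p of 6.71e-05, rank 8 of 21077 genes, and an edgeR adjusted p of 0.135. For Ngfr the difference was 1.79 (SE 0.58, edgeR adjusted p = 0.168) and for Ntrk3 it was -0.40 (SE 0.187, edgeR adjusted p = 0.238). For Sort1 it was -0.25 (SE 0.149, edgeR adjusted p = 0.344), with an unadjusted p of 0.106, so a batch difference was not shown for Sort1. Ntf3 gave 0.90 (edgeR adjusted p = 0.332) and Ntrk2 gave -0.13 (edgeR adjusted p = 0.711). No gene of 21077 was called by edgeR in this interaction (0%), although 4088 had an unadjusted p under 0.05. DESeq2 called 1.31% of genes, Bdnf among them (-0.80, adjusted p = 0.00724), and over 32 alternatives the adjusted p of Bdnf ran from 0.00724 to 0.343. In hippocampus 0.046% of genes were called in the same interaction and none of the 6, with -0.26 (SE 0.167) for Bdnf.

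Burn effects were also compared between regions, and none of the 6 genes was called. The shares of all 23526 genes called were 0.00425% for hippocampus against frontal cortex, 0% for piriform against frontal cortex and 0.0128% for hippocampus against piriform cortex. For piriform against frontal cortex edgeR gave an unadjusted p under 0.05 for 1160 genes and DESeq2 called 7. The burn effect on Bdnf was lower in piriform than in frontal cortex by 0.46 (log2 difference -0.46, SE 0.166, edgeR adjusted p = 0.847). That on Ngfr was higher in hippocampus than in frontal cortex by 1.00 (SE 0.398, edgeR adjusted p = 0.487), and that on Ntf3 was higher in hippocampus than in piriform cortex by 1.12 (SE 0.444, edgeR adjusted p = 0.78).

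In the treatment comparisons with both batches the rest of the pathway had few calls, as had all genes, of which 0% to 1.03% were called. Of 28 other neurotrophin signalling genes, 12 processing genes and 12 Bdnf regulators none was called in any of the 9 comparisons. In hippocampus 27 of the 28 signalling genes passed the count filter and were tested. The median log2 fold changes of these lists lay between -0.13 and 0.10. Of 22 activity-induced genes, Fosb, a Fos-family transcription factor, was lower in hippocampus after burn than after sham (-0.60, SE 0.146, edgeR adjusted p = 0.039), the only call. The median of the activity-induced genes was -0.16 there, beside 0.01 over all genes, with 0.04 in batch 1 alone and -0.38 in batch 2 alone, and in piriform cortex it was -0.50 for burn against excision and 0.35 for excision against sham, with no call.

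Single hippocampal batches gave further calls in these lists. For burn against sham, Homer1 (-0.87, SE 0.141) and Fosb (-0.91, SE 0.156) were the 2 of 22 activity-induced genes lower in batch 2, beside 0.156% of all genes, and none was called in batch 1, beside 7.09%. In batch 1 Plcg1 (-0.38), a phospholipase downstream of Trk receptors, was lower and the proconvertase Pcsk1 (0.63) was higher. For burn against excision 5 of the 22 were lower in batch 1, Egr4 (-0.84), Fosb (-0.66), Nr4a3 (-0.50), Dusp6 (-0.42) and Per1 (-0.66), beside 1.05% of all genes, and none in batch 2. For excision against sham Egr4 (-0.77) was lower in batch 2, beside 0.00502% of all genes.

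In frontal cortex batch 1 alone, 3 of the 28 other signalling genes were called for burn against sham, all higher, beside 6.5% of all genes: the sortilin relatives Sorcs1 (0.50, SE 0.101), Sorl1 (0.43, SE 0.111) and Sorcs3 (0.35, SE 0.0915), with edgeR adjusted p of 0.0193, 0.0344 and 0.0351. Sorcs2, another relative in the list, was not called. The same 3 were the calls against excision, at 0.39, 0.46 and 0.60, beside 6.45% of all genes. Of the processing genes Cadps2 (0.43), which helps release dense-core vesicles, and the convertase Pcsk2 (0.41) were higher. Mef2c (0.75), an activity-regulated transcription factor of excitatory neurons, was the 1 Bdnf regulator called against sham. None of the 22 activity-induced genes was called against sham, with a median of -0.01 beside -0.04 over all genes. Against excision Per1 (-0.72), Fosb (-0.78) and Npas4 (-0.92) were lower, Npas4 being in both the regulator and the activity-induced list. Mef2c (0.61) and Cadps2 (0.30) were higher against excision as well. In batch 2 alone none of these lists had a call for burn against sham, and the activity-induced genes had a median of -0.58.

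Likeness to other genes was described over all 71 libraries by Pearson's r of log2 CPM, after the mean of each region and batch was subtracted. These libraries share depth, dissection and preparation, and the values are descriptions. Bdnf was most like Ptgs2 (0.76), Nckap1 (0.75) and Fgf13 (0.70), of 14983 genes compared, and Ptgs2 and Nckap1 also led without the subtraction (0.82 and 0.81). Ntf3 was most like Gpc4 (0.78), Crym (0.75) and Hrk (0.73), and without subtraction Cabp7 (0.92), B230303A05Rik (0.92) and Gpc4 (0.92). Ntrk2 was most like Pdgfra (0.86), Plpp3 (0.83) and Dnajc27 (0.83), and Ntrk3 most like Grin2a (0.86), Dgkh (0.83) and Fam135b (0.83). Ngfr was most like Slc32a1 (0.68), Pde1c (0.64) and Ntn1 (0.63). Sort1 was most like Fam168a (0.91), Agtpbp1 (0.90) and Atf6 (0.89).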

How the data were processed

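Bulk RNA of 71 mouse brain libraries was sequenced as 100 bp single-end reads, per the labels' protocols. The deposited values are raw counts per Ensembl gene, made by the authors; FastQC 0.11.3, fastp, STAR, DESeq2 1.24.0 and GRCm38 are named in the submitters' processing notes, while the counting tool and its strand setting are not given there or in the labels. Names came from GENCODE M21, which matched 52135 of 55416 identifiers; the 3281 others held 0.809% of counts. Groups are region and treatment field; replicates are numbered in accession order. Total counts ran from 6652468 to 87775812, with a median of 57006382, and Ntf3 (8 to 252 reads) and Ngfr (8 to 632 reads) were the least precise. No library pair of a group had identical counts.

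Counts were filtered with filterByExpr, scaled by TMM and tested with edgeR 4.0.16 (quasi-likelihood, R 4.3.3), with batch as a term in hippocampus and frontal cortex. A gene was called where its p, adjusted by Benjamini-Hochberg over all genes tested, was under 0.05. Each edgeR SE was calculated from the log2 fold change and the F statistic of the test. DESeq2 1.42.0 was an alternative, as were other scalings and filters, single batches, label choices and each library left out. The test was checked on simulated data. All 6 genes are reported in every comparison; of other lists, called genes are named by adjusted p. Some genes of these lists are not reported here by name. The genes and lists were chosen with earlier results of these data known.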

Additional observations from a re-analysis of the deposited data

Results flagged for a closer look

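Of 84 groups of libraries examined gene by gene, 9 held a library far from the others of its group, where chance gives about 1 in 20. Ngfr was 2.66 CPM in hippocampus batch 2 excision replicate 10, with the others at 1.94 to 2.14 CPM, and 4.03 CPM in piriform cortex burn replicate 1, with the others at 1.19 to 1.63 CPM. The summed cholinergic markers were 0.473 CPM in that hippocampal library, the lowest of the region, and 19.0 CPM in that piriform library. Ntf3 was 2.99 CPM in hippocampus batch 2 burn replicate 9, with the others at 4.88 to 5.41 CPM, and 1.38 CPM in piriform cortex burn replicate 2, with the others at 0.475 to 0.713 CPM. Ntrk2 was 520 CPM in hippocampus batch 1 sham replicate 1, with the others at 409 to 414 CPM. In piriform cortex it was 516 CPM in burn replicate 1, with the others at 569 to 589 CPM, and 461 CPM in sham replicate 1, with the others at 583 to 606 CPM. Sort1 was 566 CPM in frontal cortex batch 2 excision replicate 6, with the others at 425 to 449 CPM, and 449 CPM in hippocampus batch 1 excision replicate 3, with the others at 545 to 578 CPM.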

How the results depend on the processing

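The number of the 6 genes called was counted 410 times over all comparisons and alternatives. In 403 it equalled the main number or was within 1.5 times of it. Such a number does not track which genes were called. Without piriform sham replicate 5, Ngfr lost its call against sham frontal cortex and Ntf3 gained one. In frontal cortex batch 1 alone, 3 of the genes were called for burn against sham and 1 for burn against excision. In batch 2 alone the direction for burn against sham turned for Bdnf (-0.19), Ngfr (0.31), Ntf3 (0.48) and Ntrk3 (-0.05). Sort1 was 0.07 in batch 2 alone, and -0.05 there without the libraries with conflicting labels. DESeq2 called 2 of the genes in sham piriform against sham frontal cortex and 1 in the frontal cortex batch interaction. Without the libraries with conflicting labels 0 were called in sham piriform against sham frontal cortex, and leaving out each library gave 0 to 1 there. With the replicate block 0 of the genes were called in the 9 treatment comparisons, with -0.96 for Ngfr, 0.29 for Bdnf and 0.17 for Sort1 in frontal cortex burn against sham, and 3 were called in sham hippocampus against sham frontal cortex with library number as the block. Same-numbered libraries had mean correlations of 0.003 to 0.036, against -0.009 to -0.002 for different numbers. Within a region these were libraries of different treatments, which cannot share a mouse. Between hippocampus and frontal cortex, libraries of the same number had a mean of 0.036 (single pairs -0.231 to 0.243), against -0.009. Whether libraries share a mouse cannot be told from these values. Counts over all genes moved more. For burn against sham they ran from 31 (batch 2 alone) to 1324 (batch 1 alone) beside 202 in hippocampus. In frontal cortex they ran from 0 to 1328 (batch 1 alone) beside 59. They were 0 there with the replicate block, with treatment taken from the titles and in batch 2 alone. For burn against excision they ran from 0 to 303 beside 41 in hippocampus and from 0 to 1318 beside 44 in frontal cortex. Leaving out 1 library gave 50 to 745 and 19 to 206 for burn against sham, and 9 to 326 and 10 to 284 for burn against excision. DESeq2 called 353 genes in the hippocampal batch interaction, beside 9. The causes of these changes were not tested. The fits of the frontal cortex batch difference without each library, of batch 2 without conflicting labels and of the other lists within batches were chosen after seeing the data.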
